A study of Rattus norvegicus with 28 samples.

Results

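The genes described here encode the machinery that holds neurotransmitter in synaptic vesicles and fuses those vesicles with the plasma membrane. They were taken by symbol from the authors' saline table, as every probe set with a single symbol of the synaptobrevin (Vamp), syntaxin (Stx), syntaxin-binding (Stxbp), synaptotagmin (Syt), Snap, complexin (Cplx), synapsin (Syn1 to Syn3), Sv2, Rab3, Rims, synaptophysin (Syp), Nsf or Unc13 names, with 1 probe set per gene, that of the highest mean over all arrays. This gave 52 genes of 4777 with a single symbol, and 74 probe sets of 15866. No probe set carried the symbol Syt1 or a Rims symbol by this rule, so the main calcium sensor of fast release has no value here. A pair of names that the pattern caught stand apart in function: Rab38 belongs to the transport of pigment granules, and Snap91 is a clathrin adaptor of vesicle retrieval.

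Fusion is driven by a bundle of SNARE proteins, in which a vesicle synaptobrevin zips together with a syntaxin and a SNAP protein of the plasma membrane. Munc18 proteins (Stxbp) and Munc13 proteins (Unc13) prepare the bundle, complexins clamp it, synaptotagmins trigger it when calcium enters, and the ATPase Nsf takes it apart afterwards. During the postnatal weeks the brain gains synapses, and many of these genes are used as markers of that growth.

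Amygdala RNA was taken at the close of a 45-min session in which rat pups smelled peppermint 11 times for 30 s. In paired training a tail shock (0.5 mA, 1 s) ended each odor, and in unpaired training, the control, it followed with a delay of 2 min. The 3 conditions were measured on 28 arrays: saline at day 8 (7 paired, 7 unpaired), corticosterone, the stress steroid of rats, at day 8 (3 and 3), and day 12 without an agent (4 and 4). No strain, no dose of corticosterone and no pooling of pups is named in the labels, so p-values reflect the spread between these samples, which may be technical. Values were log2 expression, and a larger array design carried replicates 3 and 4 of both the saline and the 12-day pups, the smaller one all other arrays.

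Array medians lay between 6.05 and 6.19 in saline, between 5.06 and 5.09 in corticosterone and between 6.38 and 6.46 in 12-day arrays, so deposited levels are not on a common scale across conditions, and ages and agents were compared by each probe set's percentile rank within its array. Of the 10 amygdala markers listed, 4 had a probe set; Prkcd, Nr2f2 and Wfs1 had mean log2 values of 7.94, 7.79 and 7.44, and Cyp26b1 lay at 4.00, near the low end. All 9 measured pan-neuronal markers had means of 9.42 or more. The number of arrays limited the precision. In whole tissue, fewer cells of a type and less RNA per cell cannot be told apart.

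Promoter sequences of 4 members are shown, picked after the motif matches were seen. In the age comparison described below, Vamp1 and Syn1 ranked higher at day 12, and Stx7 and Stx12 ranked lower. Each runs 5′ to 3′ on the gene's own strand, from 250 bases before to 50 bases after the gene start in RefSeq (build GRCr8). Capitals mark matches to motifs that a script searched on both strands: TGACGTCA, the cAMP response element bound by CREB; GGGCGG, the GC box bound by Sp1; and CGCATGCG, the core of the NRF1 motif.
Vamp1 (chr4:159698644-159698943, plus strand): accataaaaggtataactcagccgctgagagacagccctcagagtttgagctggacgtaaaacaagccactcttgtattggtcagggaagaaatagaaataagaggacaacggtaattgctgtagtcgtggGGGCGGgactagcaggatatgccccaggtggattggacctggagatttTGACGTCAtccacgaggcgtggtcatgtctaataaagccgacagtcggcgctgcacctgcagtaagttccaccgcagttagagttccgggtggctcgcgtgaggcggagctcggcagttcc
Syn1 (chrX:3725495-3725794, plus strand): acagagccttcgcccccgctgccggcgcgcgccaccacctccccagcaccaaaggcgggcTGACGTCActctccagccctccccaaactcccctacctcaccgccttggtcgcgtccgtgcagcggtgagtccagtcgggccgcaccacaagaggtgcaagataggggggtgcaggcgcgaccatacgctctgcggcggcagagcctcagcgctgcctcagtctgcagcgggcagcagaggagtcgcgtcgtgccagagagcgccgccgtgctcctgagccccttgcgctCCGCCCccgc
Stx7 (chr1:23056416-23056715, minus strand): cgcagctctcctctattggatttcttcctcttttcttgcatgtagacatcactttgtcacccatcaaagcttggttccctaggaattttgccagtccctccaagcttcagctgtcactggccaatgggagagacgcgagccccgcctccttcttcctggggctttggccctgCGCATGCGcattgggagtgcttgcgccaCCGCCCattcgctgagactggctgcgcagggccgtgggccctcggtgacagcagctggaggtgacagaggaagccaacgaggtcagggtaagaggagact
Stx12 (chr5:150376297-150376596, minus strand): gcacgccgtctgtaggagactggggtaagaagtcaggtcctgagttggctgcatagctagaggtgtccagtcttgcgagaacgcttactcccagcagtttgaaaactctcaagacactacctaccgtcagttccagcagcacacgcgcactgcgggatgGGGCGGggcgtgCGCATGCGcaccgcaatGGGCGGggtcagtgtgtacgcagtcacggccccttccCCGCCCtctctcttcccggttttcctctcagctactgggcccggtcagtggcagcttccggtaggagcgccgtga

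RefSeq promoters matched 40 of the 52 members. On both strands, the cAMP response element occurred in 2 of these 40, those of Vamp1 and Syn1, and in 1.83% of all 33469 promoters of the same length. It started at -71 relative to the gene start in Vamp1 and at -190 in Syn1. The NRF1 core occurred in 4 members, Stx7, Stx12, Stx1a and Stxbp5, against 1.66% of all promoters. It started at -79 in Stx12 and at -78 in Stx7. The GC box occurred in 29 members (72.5%), against 33.1% of all promoters, and it was present in all 4 sequences shown. For each motif the background counts every promoter, not selected by gene type or expression, while members count once per symbol. The sets are thus unlike, and the shares were not tested against each other. TTCAGCACC, the left arm of the RE1 motif, which the neuronal gene repressor REST binds, was found in 1 member, Unc13a, and in 0.356% of all promoters. The CCAAT box (CCAAT) occurred in 42.5% of the members' promoters and 37.5% of all, the E-box (CACGTG) in 12.5% and 6.42%, and the TATA box (TATAAA) in 2.5% and 14.2%; these are not set in capitals. The 7 motifs and a longer form of the NRF1 site were looked at together, and the 4 promoters shown were picked after the matches were seen. No link between a motif and a direction of the age difference can therefore be read from these 4. Stx1a, which also has the NRF1 core, was called on neither array design between ages. No match set in capitals overlapped another. These matches describe letters in the sequence and are not sites shown to be bound.

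The first comparison asked whether paired training moved these genes against unpaired training within each condition. In saline pups 24 members were higher and 28 lower in paired pups by their means, with a median difference of -0.02 on the log2 scale, against 0.02 over all probe sets. The difference was under 0.2 in size in 43 of the 52 members, against 92.1% of all probe sets. Rank product analysis, the test named in the design text, called 0 of the 52 members in either direction at a pfp (the proportion of false positives the method estimates) under 0.05, where it called 0.0693% of all probe sets higher and 0.101% lower. Limma likewise called 0 members, and 0 members had an unadjusted p under 0.05, against 0.454% of all probe sets. That fit takes the arrays as unpaired. With the replicate number as a block, limma again called 0 probe sets, and 9 members had an unadjusted p under 0.05, against 13.5% of all probe sets. With the array set (replicates 1 and 2, 3 and 4, or 5 to 7) as a block it called 0, and 4 members had such a p, against 6.86%.

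The core of the release machinery had nearly equal levels after both kinds of training in saline pups. Vamp2, the main synaptobrevin of forebrain vesicles, had a mean log2 of 10.90 ± 0.10 (SD, n = 7) after paired and of 10.96 ± 0.23 (SD, n = 7) after unpaired training, with paired arrays between 10.74 and 11.04 (median 10.89) and unpaired arrays between 10.76 and 11.37 (median 10.84). Snap25, its partner on the plasma membrane, measured 12.70 ± 0.28 and 12.72 ± 0.24, between 12.33 and 13.06 (median 12.67) and between 12.43 and 13.07 (median 12.70). Stx1a, the syntaxin of that complex, measured 10.70 ± 0.30 and 10.78 ± 0.28, between 10.20 and 10.98 (median 10.79) and between 10.32 and 11.05 (median 10.86). These 3 differences were all smaller than the spread between arrays of one group. Synaptophysin (Syp), an abundant vesicle membrane protein, measured 11.06 ± 0.32 and 11.07 ± 0.32. Synapsin 1 (Syn1), which tethers reserve vesicles, measured 9.72 ± 0.51 and 9.76 ± 0.37. Complexin 1 (Cplx1) measured 11.36 ± 0.34 and 11.39 ± 0.36, again within the spread.

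**Figure D1:**
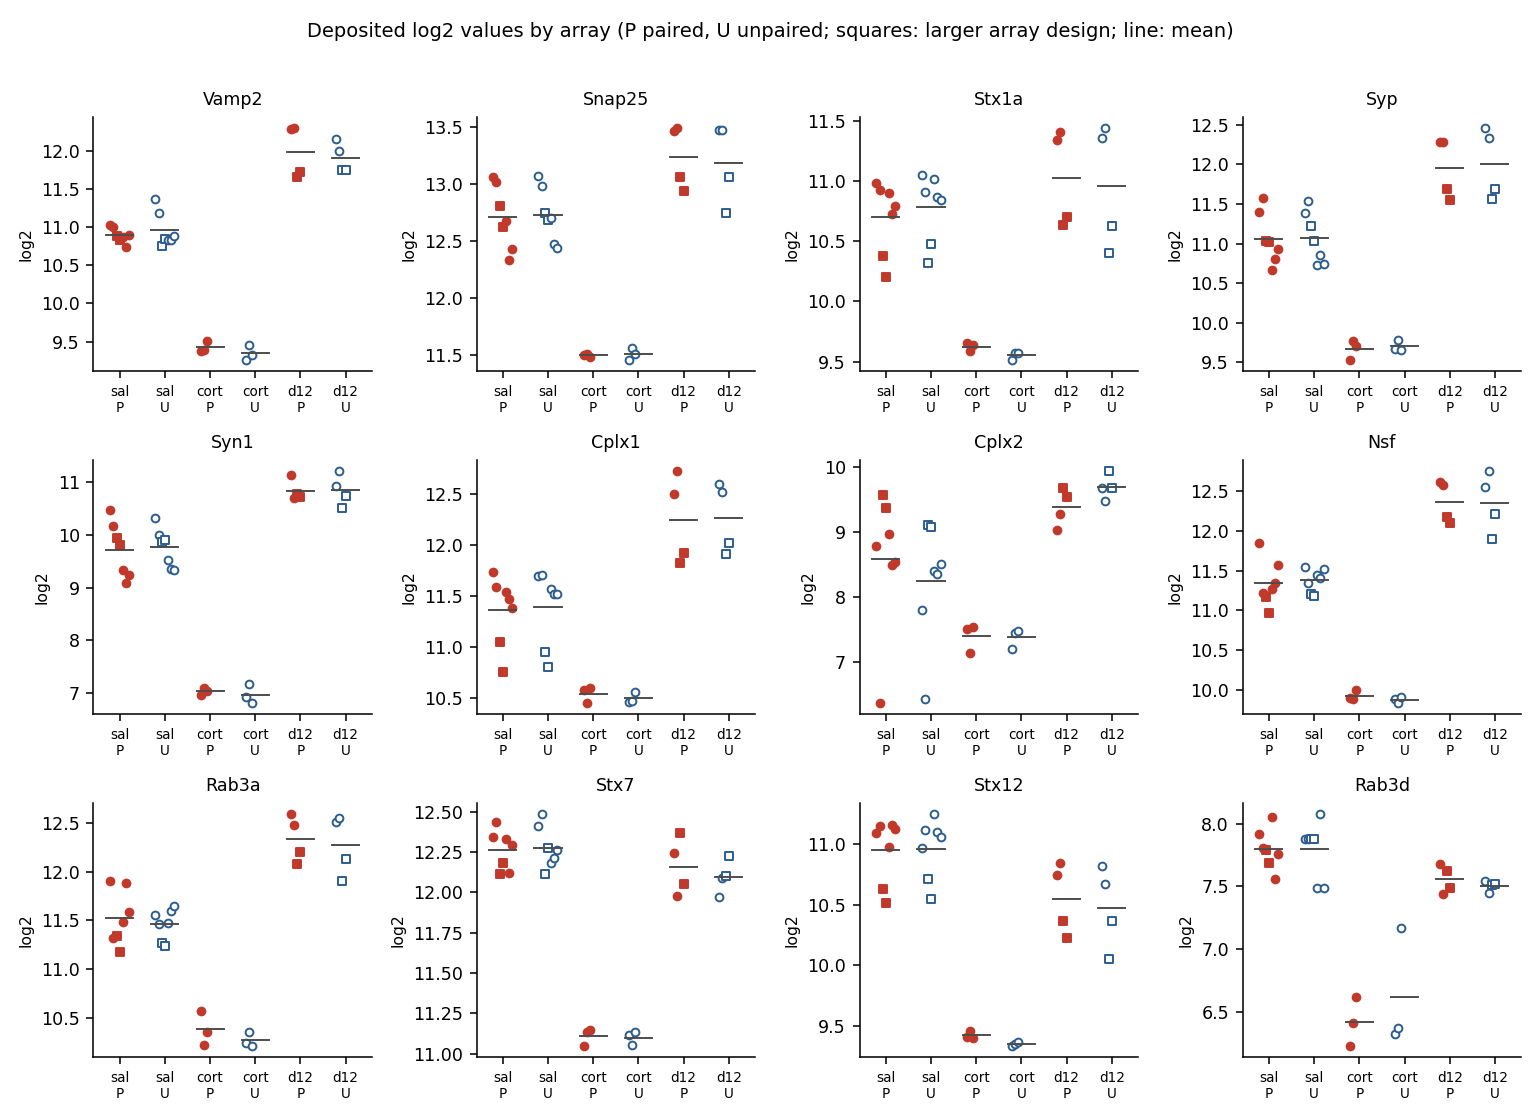
Deposited log2 values of 12 members by array, in saline (sal), corticosterone (cort) and 12-day (d12) pups, with paired (P, filled) and unpaired (U, open) arrays and the group mean as a line; squares are arrays of the larger design. Paired and unpaired arrays of a condition lie at like levels in every panel, and heights are not comparable between conditions, which have array medians between 5.06 and 6.46.

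One probe set of one gene was the exception. Vamp1, the synaptobrevin of brainstem, spinal and other fast-firing neurons, has 3 probe sets, of which A is the member probe set, and probe set B was called lower in paired saline pups (pfp 0.00364). Its values in paired replicates 1 to 7 were 6.63, 4.81, 4.64, 4.11, 5.02, 5.60 and 5.67, lowest 4.11, median 5.02 and highest 6.63. In unpaired replicates 1 to 7 they were 6.78, 5.82, 5.40, 4.98, 5.90, 6.70 and 6.63, lowest 4.98, median 5.90 and highest 6.78. The groups overlap, but each paired array lay below the unpaired array of its number. The means were 5.21 ± 0.83 and 6.03 ± 0.70, a difference of -0.82 (SE 0.38). Rank products order changes without scaling them to the spread of each probe set, and the pooled SD of this one, 0.767, is reached or passed by 5.04% of all probe sets, whose median is 0.234. The median SD of the 27 probe sets called in saline pups was 1.40. In simulated data with the spread of the saline arrays but with independent arrays, rank products called more unchanged than changed probe sets. Same-numbered saline arrays deviated together, so the simulation does not give the share of false calls in these data. The pfp of a probe set with a large spread is not read as an error rate here.

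Same-numbered saline arrays deviated together, although only 3 of 7 correlated best with the array of their own number. The difference was -0.58 in replicates 1 and 2, -0.81 in replicates 3 and 4 and -0.98 in replicates 5 to 7, so it had one sign in all 3 sets of arrays. Rank products over same-numbered arrays, which called 0.29% of all probe sets higher and 0.378% lower, called this probe set as well, and again 0 members by their brightest probe set. Limma did not call it, with an adjusted p of 1.00, of 0.203 with the replicate number as a block and of 0.663 with the array set as a block. The call was also lost on within-array percentile ranks (pfp 0.273) and without paired replicate 4 (pfp 0.084), unpaired replicate 6 (0.0615) or unpaired replicate 7 (0.0708). In the authors' deposited table the same probe set has a pfp of 0.0082 for lower in paired pups.

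Vamp1 probe set A had a smaller difference. It measured 8.32 ± 0.43 in paired and 8.67 ± 0.45 in unpaired saline pups, a difference of -0.35 (SE 0.22, pfp 0.541), also lower in 7 of 7 same-numbered pairs. Probe set C stayed between 1.88 and 2.05 on every saline array, near the lowest levels of the arrays.

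**Figure D2:**
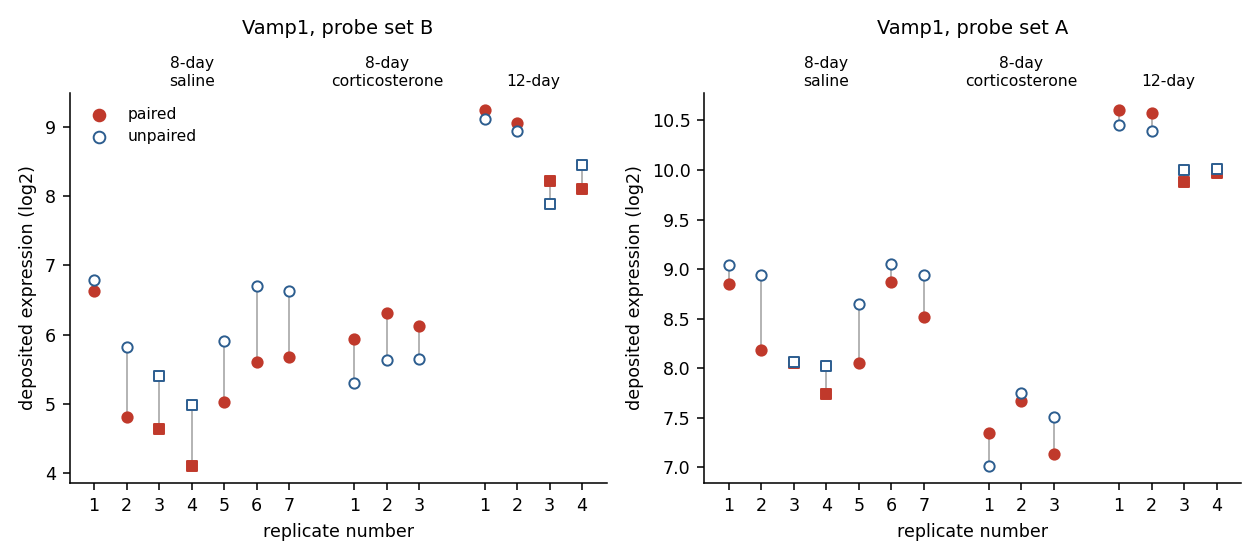
Deposited log2 expression of Vamp1 on every array for probe sets A and B (one per panel), with same-numbered paired (filled) and unpaired (open) arrays joined by a line; squares are arrays of the larger design. In saline pups every paired value lies below its unpaired neighbour on both probe sets; in corticosterone pups the order is the reverse in 3 of 3 pairs on B.

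Markers of other cells and regions differed in their means between the saline groups, though few were called by rank products and limma called 0 probe sets. Of the measured oligodendrocyte markers 8 of 9 were lower in paired pups by their means (median -0.24), of which 1 was called, and all 4 thalamus markers were lower (median -0.32, none called). Prkcd stands on both the thalamus and the amygdala list. Of the 4 measured amygdala markers only 1 was higher (median -0.11, none called), so a lower mean was not particular to the thalamus list. All 9 striatal markers were higher (median 0.46, 2 called). The mean log2 of the oligodendrocyte list ranged from 6.40 to 7.66 in paired and from 6.43 to 8.00 in unpaired saline arrays, that of the thalamus list from 8.61 to 9.55 and from 9.11 to 9.47, and that of the striatal list from 7.77 to 9.23 and from 6.91 to 8.73. Their part in the Vamp1 difference was not tested.

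Large but uncalled differences in saline pups came with uneven arrays. Sv2b, a vesicle glycoprotein that binds synaptotagmin, had the largest difference of any member, -0.69 (SE 0.48, pfp 0.256). Its paired values in replicates 1 to 7 were 8.16, 9.09, 10.96, 10.84, 11.21, 11.73 and 11.40, and the unpaired ones ranged from 10.74 to 11.84 with a median of 11.13. The paired arrays of replicates 1 and 2 alone were low, with a difference of -2.52 in that set against 0.06 and 0.03 in the others. These are values of its member probe set, A. Of its other 3 probe sets, B measured 8.77 ± 0.64 and 8.75 ± 0.57. Probe set C depended on the set rather than on training: the arrays of replicates 1 and 2 lay between 2.24 and 4.38, and the remaining saline arrays between 8.89 and 10.22.

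**Figure D3:**
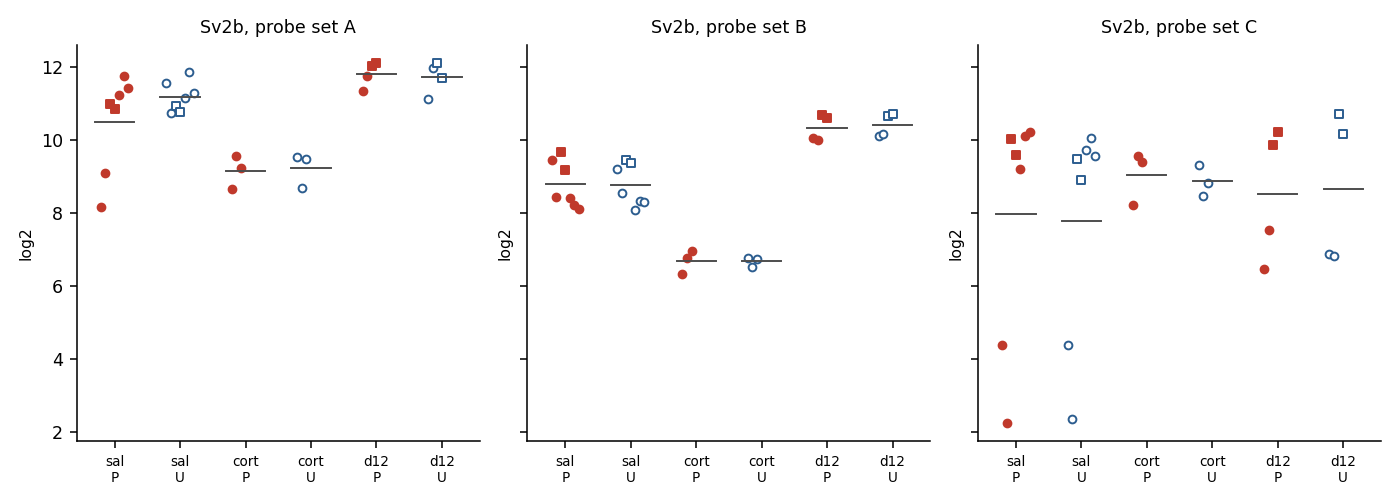
Deposited log2 values of 3 Sv2b probe sets by array and group (sal saline, cort corticosterone, d12 12-day; P paired, filled; U unpaired, open; squares: larger design; line: mean). The 2 lowest saline paired values on A are 8.16 and 9.09, and C splits the saline arrays of both trainings into 4 between 2.24 and 4.38 and 10 between 8.89 and 10.22.

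Such set differences were common among the members. The means of the 3 saline sets (replicates 1 and 2, 3 and 4, 5 to 7) spanned over 0.5 in 26 members (50%), against 36.4% of all probe sets, and in 22 of the 33 members with a mean log2 of at least 5 (66.7%), against 55.0% at that level. They spanned over 1 in 5 members: Cplx2 (1.93), Sv2b (1.54), Syt4 (1.29), Syt11 (1.19) and Rab3b (1.11). Each set held paired and unpaired arrays in equal number.

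Among the other roles, saline differences were small and of mixed sign. The 7 plasma membrane SNAREs had 3 higher and 4 lower members with a median of -0.02, and the 5 endosomal and Golgi syntaxins 1 and 4 with a median of -0.02. The 11 synaptotagmins had 7 higher and 4 lower, between Syt13 at -0.45 (SE 0.34) and Syt12 at 0.34 (SE 0.21). The 11 SNARE chaperones and regulators had 4 higher and 7 lower, the highest being Cplx2, a complexin of excitatory neurons, at 0.34 (SE 0.48). Cplx2 ranged from 6.38 to 9.58 (median 8.79) in paired and from 6.44 to 9.12 (median 8.41) in unpaired saline arrays, and the replicate 2 array was the lowest in both groups. None of these 4 groups held a called member.

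In corticosterone pups 26 members were higher and 26 lower in paired pups, with a median of -0.0019 (all probe sets -0.02), and 49 of 52 lay within 0.2 (all: 93.3%). Rank products called 0 members, where 0.0252% of all probe sets were called higher and 0% lower, and 3 members, Stx8, Rab38 and Syt8, had an unadjusted limma p under 0.05, against 2.83% of all probe sets, with 0 after adjustment. The groups did not overlap in 5 members, Stx4, Stx12, Rab38, Stx1a and Syt12, all named after their values were seen, and in 7 of the 74 probe sets, against 6.96% of all probe sets. On Vamp1 probe set B the paired values were 5.94, 6.31 and 6.13 and the unpaired values 5.30, 5.63 and 5.65, so every paired array was above every unpaired one. The difference was 0.60 (SE 0.14, pfp 0.116), opposite in sign to that in saline pups and not called. The 9 striatal markers, higher in paired saline pups, were all lower in paired corticosterone pups (median -0.37, none called), and the part of this in the difference was not tested. On the member probe set of Vamp1 the paired values of 7.35, 7.67 and 7.14 overlapped the unpaired values of 7.02, 7.74 and 7.51. Stx8, an endosomal syntaxin, had the largest difference of a member, -0.37 (SE 0.14, pfp 0.460).

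In 12-day pups 25 members were higher and 27 lower, with a median of -0.0034 (all probe sets -0.0071), and 46 lay within 0.2 (all: 92.2%). Rank products called 0 members, against 0.0504% of all probe sets higher and 0% lower, and limma gave 0 members an unadjusted p under 0.05, or 4 with a replicate block, against 2.7% of all probe sets with that block. Syt12, a synaptotagmin without calcium binding, had the largest difference, -0.65 (SE 0.38, pfp 0.228). Its paired values ran from 5.16 to 7.0 and its unpaired values from 6.23 to 6.98, so the groups overlapped. Vamp1 probe set B differed by 0.06, with paired values of 9.24, 9.05, 8.22 and 8.11 and unpaired values of 9.12, 8.95, 7.88 and 8.45. The arrays of the larger design, replicates 3 and 4, were the lower ones in both groups.

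**Figure D4:**
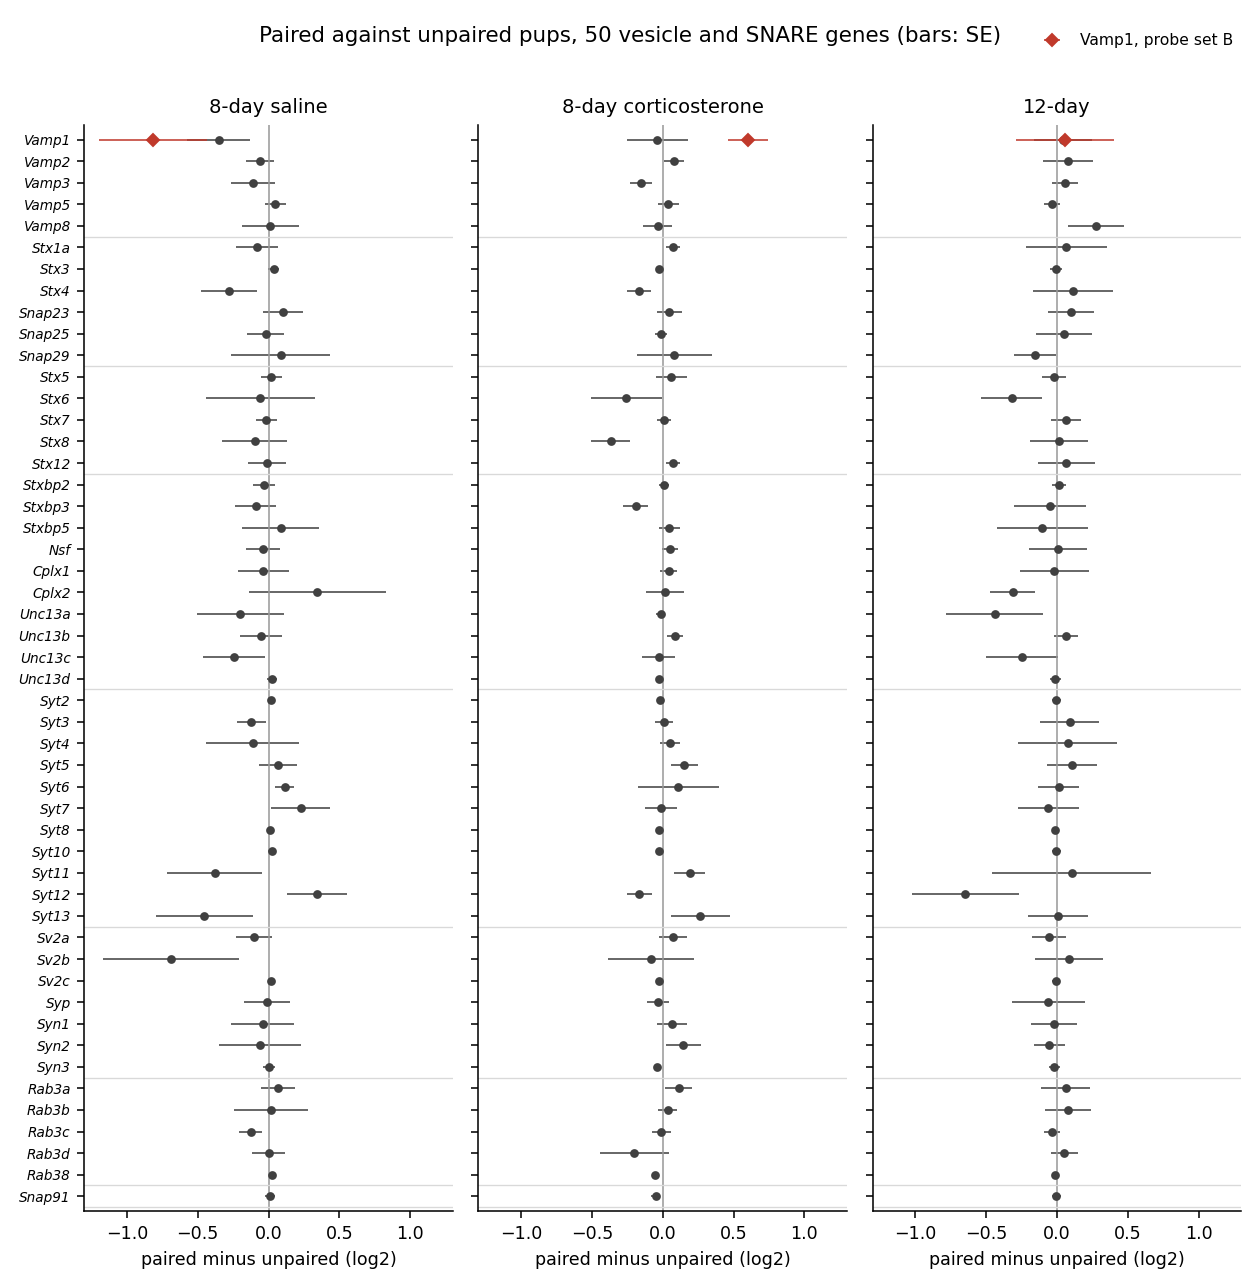
Difference between paired and unpaired means (log2, bars ± SE from limma) of 50 of the 52 members in each condition, grouped by role (grey lines) in the order vesicle SNAREs, plasma membrane SNAREs, endosomal and Golgi syntaxins, chaperones and regulators, synaptotagmins, vesicle proteins and synapsins, Rab GTPases, and Snap91; the diamond is Vamp1 probe set B. Most members lie within 0.2 of 0, and the diamond lies at -0.82, 0.60 and 0.06.

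An interaction term in limma set the pairing difference of one condition against that of another. It called 0 members and 0% of all probe sets both for corticosterone minus saline and for 12-day minus saline, with 65 and 53 probe sets and 1 member each at an unadjusted p under 0.05, Rab38 (-0.08, SE 0.04) and Syt12 (-0.99, SE 0.42). With a replicate block within each condition 2140 and 546 probe sets and 6 and 4 members had such a p, and with the array set as a block 1785 and 512 probe sets and 5 and 2 members, again with 0 called after adjustment. Vamp1 probe set B, singled out because of its call in saline pups, had a difference of effects of 1.42 (SE 0.62, adjusted p 1.00 in limma) between corticosterone and saline and of 0.87 (SE 0.59, adjusted p 1.00 in limma) between 12-day and saline. Both comparisons share the saline arrays.

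The second comparison set 12-day against 8-day saline pups, on each array design apart, with training as a covariate. Each condition is taken as normalized on its own, because array medians differ between conditions, though the sources do not state it. Age went together with agent (none against saline) and with any such normalization, and these cannot be told apart. A large share of all probe sets differed, and the members' counts are set against it. Several genes of the release machinery ranked higher at day 12 on both designs, Vamp1 with the largest difference among those of clear signal (a mean log2 of at least 5) called on both, while endosomal syntaxins ranked lower.

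On the smaller design (10 saline and 4 12-day arrays) 22 of 52 members were higher and 11 lower in limma with adjustment over all probe sets, against 28.6% higher and 24.2% lower of all probe sets. On the larger design (4 and 4 arrays) 23 were higher and 12 lower, against 36.6% and 30.6%. In the same direction on both designs were 17 higher (32.7%) and 9 lower (17.3%), against 23.8% and 20.1%. A further 16 members were called on 1 design only, 10 on neither and 0 in opposite directions. The ages did not overlap in 24 members on the smaller design and in 33 on the larger one, so this trait is common among them. Its share over all probe sets was not counted. Of the 33 members with a mean log2 of at least 5, 11 were higher on both (33.3%) and 4 lower (12.1%), where all probe sets of that level had 17.8% and 20.9%. Centring arrays on their medians instead of ranking them moved the split of all probe sets to 2932 higher and 7599 lower on the smaller design, from 4537 and 3846, and to 3694 and 8540 on the larger one, from 5806 and 4861. It put the members at 19 higher and 19 lower, and at 17 and 24. With that centring the median of all probe sets was -0.27 and -0.24 on the log2 scale.

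Both well-detected Vamp1 probe sets were higher at day 12 on both designs. On the member probe set, the percentile rank on the smaller design was 67.1 at the lowest, 75.8 at the median and 78.4 at the highest of the 10 saline arrays, and ranged from 87.7 to 89.2 on the 12-day arrays. On the larger design it ranged from 63.8 to 67.6 and from 83.5 to 85.1, so the ages did not overlap on either. The differences were 14.3 percentile points (SE 1.76, limma adjusted p = 1.95e-05) and 18.1 points (SE 0.87, limma adjusted p = 3.92e-06). On quantile-normalized log2 values they were 1.43 (SE 0.16) and 1.66 (SE 0.08). Probe set B differed by 25 and 22.4 percentile points.

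The other vesicle SNARE of clear signal that was higher on both designs was Vamp2. Its ranks on the smaller design were between 92.9 and 95.2 with a median of 93.6 in saline and between 96.4 and 97.3 in 12-day arrays, and on the larger design between 92.9 and 93.6 and between 95.3 and 95.8. The differences were 3.17 points (SE 0.36) and 2.31 points (SE 0.20), or 0.85 and 0.54 on the quantile-normalized log2 scale; near the top of the ranks a few points span a large log2 difference. Vamp3, the cellubrevin of endosome recycling in most cells, was called on neither design, with -0.25 (SE 0.13) and 0.14 (SE 0.10) in quantile-normalized log2. Vamp8, a SNARE of late endosomes, was called lower on the smaller design only (-2.93 points). On the larger one it differed by -2.33 points (limma adjusted p = 0.0551).

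The plasma membrane partners did not follow one direction. Snap23, the SNAP protein of most tissues, was higher on both designs, by 2.83 points (SE 0.99) and 5.04 points (SE 0.42). Stx4, a syntaxin of regulated exocytosis outside synapses as well, was higher by 8.48 points (SE 1.78) and 4.61 points (SE 1.06). Snap25 ranked near the ceiling in all arrays: on the larger design its ranks ran from 98.9 to 99.1 in saline and from 98.6 to 99.0 in 12-day arrays, and its quantile-normalized log2 difference was -0.05 (SE 0.07). On the smaller design it was called higher (0.69 points, limma adjusted p = 0.0301), a call lost without any 1 of the 4 12-day arrays, with adjusted p from 0.062 to 0.0715. The call was also lost with a replicate block, where the difference was 0.224 points (limma adjusted p = 0.0962). With unpaired pups only, and so fewer arrays, it was lost at 0.655 points (limma adjusted p = 0.186). The member probe set of Stx1a differed by 0.56 points (SE 0.25) and -0.53 points (SE 0.55) and was called on neither.

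Endosomal and Golgi syntaxins held 3 of the 4 lower members of clear signal. Stx12, of recycling endosomes, had ranks between 93.3 and 95.3 in saline and between 89.9 and 90.9 in 12-day arrays on the smaller design, and between 91.5 and 92.7 against 85.6 to 88.0 on the larger one. The ages did not overlap, and the differences were -3.89 points (SE 0.34) and -4.85 points (SE 0.60). Stx7, of late endosomes, fell by 1.66 points (SE 0.18) and 0.77 points (SE 0.21), and Stx8, its partner, by 5.70 points (SE 1.46) and 2.11 points (SE 0.61). Stx5, of the Golgi, went the other way, by 3.13 points (SE 0.57) and 3.48 points (SE 0.57). Stx6, of the trans-Golgi network, was called on neither design.

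Among chaperones and regulators, 3 of the 6 members of clear signal were higher on both designs and 0 lower, against 17.8% and 20.9% of all probe sets of that level; no role was tested as a group. Nsf had ranks from 94.6 to 97.0 with a median of 95.8 in saline and from 98.0 to 98.4 in 12-day arrays of the smaller design, and from 94.0 to 95.0 against 96.4 to 97.2 on the larger one. This was 2.40 points (SE 0.35) and 2.21 points (SE 0.30). Cplx1 ranged from 95.5 to 96.6 with a median of 96.1 against 97.8 to 98.4, and from 92.8 to 94.4 against 95.8 to 96.5, a difference of 1.90 points (SE 0.21) and 2.76 points (SE 0.39). Both genes had ages that did not overlap on either design. Cplx2 was called on neither, and its saline ranks on the smaller design spread from 51.2 to 77.9.

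Of vesicle proteins and synapsins, Syn1 and Syp were higher on both designs. Syn1 ranged from 78.6 to 90.6 with a median of 82.6 in saline and from 89.9 to 93.1 in 12-day arrays of the smaller design, which overlap, and from 86.1 to 87.4 against 89.6 to 90.9 on the larger one, which do not. The differences were 7.59 points (SE 2.19) and 3.73 points (SE 0.38). Syp differed by 3.23 points (SE 0.69) and 0.81 points (SE 0.22), or 0.89 and 0.19 in quantile-normalized log2. On member probe sets, Sv2a and Sv2b, the glycoproteins, and Syn2 were called higher on the larger design only, by 2.46, 3.0 and 6.19 points. On the smaller design they were uncalled but also higher, by 1.27 (SE 0.72), 3.69 (SE 4.65) and 7.98 points (SE 3.73). With unpaired pups only, the calls of Syn1 on the smaller design (7.74 points, limma adjusted p = 0.0554) and of Syp on the larger one (0.67 points, limma adjusted p = 0.22) were lost. That setting leaves 5 saline and 2 12-day arrays on the smaller design, and 2 and 2 on the larger one.

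Rab3a, the GTPase of synaptic vesicles, rose from a rank of 95.0 to 97.1 (median 96.1) to 97.8 to 98.0 on the smaller design and from 94.9 to 95.5 to 96.4 to 97.3 on the larger one. The differences were 1.75 points (SE 0.34) and 1.63 points (SE 0.23). Rab3d, known from secretory granules of glands and other exocytic cells, ranged from 61.1 to 67.7 with a median of 63.9 against 56.9 to 59.2, and from 63.3 to 65.5 against 58.2 to 59.3. It was lower by 6.14 points (SE 1.24) and 6.06 points (SE 0.63). On the smaller design its call was lost with unpaired pups only (-6.11 points, limma adjusted p = 0.0558). Rab3b was called lower on the smaller design only (-8.66 points). On the larger one it differed by -3.55 points (limma adjusted p = 0.0553).

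No synaptotagmin of clear signal was called the same way on both designs. Syt4, Syt5 and Syt3 differed by -0.217, 0.407 and 0.0189 points on the smaller design, where none was called. On the larger design Syt5 fell by 4.53 points (SE 0.51), Syt3 by 2.02 points (SE 0.47) and Syt13 by 5.85 points (SE 0.97). Syt11 was higher on the smaller design only (15.8 points, SE 3.98), where its saline arrays varied (SD 8.17).

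**Figure D5:**
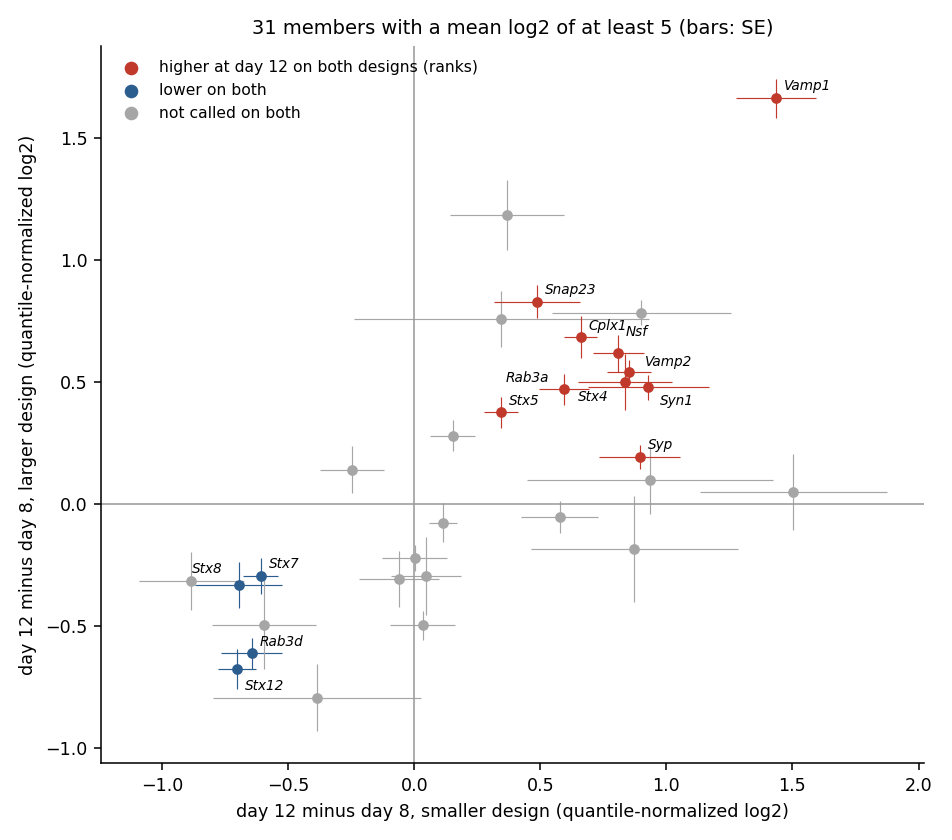
Day 12 minus day 8 in quantile-normalized log2 on the smaller (x axis) and larger (y axis) array design for 31 of the 33 members with a mean log2 of at least 5, with limma SE as bars and colours by the calls on percentile ranks. Vamp1 lies farthest from 0 among the called members at 1.43 and 1.66, and the 4 lower members lie between -0.70 and -0.61 on the x axis.

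Where a gene had several probe sets of clear signal, none were called in opposite directions, but some differed in sign. Of 9 such genes, with 22 probe sets, all probe sets were called higher on both designs in 3, among them Cplx1 and Vamp1, and in 0 genes were 2 probe sets called in opposite directions. Vamp2 had 2 of 3 and Nsf 2 of 3 probe sets higher on both. Sv2b had 1 of 3 at that level, probe set B, at 13 and 7.95 points, which is not its member probe set. Its probe set C differed by -9.52 points on the smaller design and 3.99 points on the larger one, and was called on neither. The other Stx1a probe set differed by 5.40 points on the smaller design, uncalled, and was called lower on the larger one (-3.95 points). Syn2 had 1 of 2 probe sets higher on both, at 8.86 and 7.80 points, also not its member probe set.

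The remaining 11 members called on both designs, 6 higher and 5 lower, had means under 5 over all 28 arrays. Unc13a (Munc13-1), the main priming factor of excitatory synapses, missed that level narrowly, with a mean of 4.95 that includes corticosterone arrays between 2.92 and 3.02. It was higher at day 12, with ranks from 39.0 to 51.5 (median 42.6) in saline and from 49.8 to 56.9 in 12-day arrays of the smaller design, and from 41.7 to 46.8 against 46.2 to 50.1 on the larger one. The ages overlapped on both designs, and the differences were 9.83 points (SE 1.91) and 3.64 points (SE 0.95), or 1.74 and 0.70 in quantile-normalized log2. With unpaired pups only the call on the larger design was lost (2.39 points, limma adjusted p = 0.203).

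The other 10 had mean ranks between 2.43 and 35.3 in these comparisons, and there a large rank difference can come with a small log2 difference. Snap91 ranked from 25.9 to 27.5 with a median of 26.5 in saline and at 11.6 in the 12-day arrays of the smaller design, a difference of -0.61 in quantile-normalized log2. On the larger design its ranks were 26.4 to 26.8 against 11.5 to 12.1. Stxbp2, a Munc18 of immune and epithelial cells, ranked from 34.4 to 36.7 (median 34.9) against 24.5 to 26.4, and from 35.1 to 35.2 against 26.0 to 26.3. Both ranked lower at day 12 on both designs.

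Syt6 ranked from 12.9 to 18.4 (median 14.0) against 32.9 to 34.6, and from 15.5 to 22.1 against 34.0 to 37.5, or 1.08 and 1.11 in quantile-normalized log2. Syt2, the synaptotagmin that works with Vamp1 at fast synapses, ranked from 4.77 to 5.11 (median 5.00) against 9.66 to 10.0, and on the larger design from 5.01 to 5.16 against 9.64 to 10.5, a difference of only 0.20 in quantile-normalized log2 on each. Syt8 ranked from 2.26 to 2.64 (median 2.47) against 3.06 to 3.09, and from 2.34 to 2.52 against 2.98 to 3.10. Syt2 and Syt8 thus had higher ranks at day 12 on both designs, but both differences changed sign when arrays were centred on their medians.

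Markers of other cells moved with age as well. All 9 oligodendrocyte markers were called higher at day 12 on both designs, with median differences of 34.4 and 39.9 percentile points. Their mean percentile ranged from 54.1 to 63.8 in paired and from 54.2 to 66.1 in unpaired saline arrays, and from 88.0 to 94.1 and from 92.6 to 93.3 in 12-day arrays. Of the pan-neuronal markers 4 of 9 were called higher on both and 1 lower, of the astrocyte markers 6 of 9 and 0, and of the microglia markers 3 of 4 and 0, against 23.8% and 20.1% of all probe sets. Their part in the members' differences was not tested.

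Genes that work beside the members were taken from 3 lists. The shares of all probe sets called on both designs, 23.8% higher and 20.1% lower, are the background of their counts. Of 16 measured endocytosis genes 5 were higher on both designs and 2 lower. The 3 with the smallest larger p of both designs were Dnm2, a dynamin of most cells, at -4.61 and -3.72 points, Bin1, an amphiphysin of membrane curvature and of myelinating cells, at 11.2 and 12.4 points, and Ap2s1, a clathrin adaptor subunit, at -1.39 and -2.72 points. Of 19 vesicle and active zone partners 6 were higher and 2 lower, among them Rph3a (a Rab3 effector, 4.19 and 2.40 points) and Rab27b (-7.87 and -6.34 points). Of 5 measured subunits of the vesicle proton pump 0 were called on both designs in limma, and 1, Atp6ap1, was called higher on the larger one.

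The third comparison set corticosterone against saline pups at day 8 on the smaller design (6 and 10 arrays), where agent and any normalization of each condition on its own cannot be told apart. Of the 52 members 9 were higher and 19 lower in limma, against 27.8% and 34.2% of all probe sets. The groups did not overlap in 17 members, and the share of all probe sets that did not was not counted. Of the 33 with a mean log2 of at least 5, 4 were higher and 9 lower, against 24.4% and 26.8%. With arrays centred on their medians the split of all probe sets turned, to 7608 higher and 4287 lower from 4417 and 5431, with a median of 0.28, and the members were at 20 and 20.

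The 6 members with the smallest p had means under 5 over all arrays, with mean ranks from 4.13 to 46.6 in the groups compared. Rab3c, a neuronal Rab3, ranked from 46.2 to 46.9 given corticosterone and from 29.1 to 34.0 (median 30.1) given saline, a difference of 15.7 points (SE 0.66, limma adjusted p = 1.32e-11), or 2.13 in quantile-normalized log2. Stx3, a syntaxin of ribbon synapses and epithelia, ranked from 23.0 to 23.4 against 17.8 to 19.2 (median 18.6), and Syt10 from 9.02 to 9.61 against 5.67 to 6.60 (median 5.95). These 3 were higher, with groups that did not overlap. Lower were Stxbp2, from 21.3 to 23.9 against 34.4 to 36.7 (median 34.9), Sv2c, a glycoprotein of basal ganglia terminals, from 4.00 to 4.27 against 9.55 to 10.7 (median 10.2), and Unc13d, from 11.3 to 11.7 against 13.7 to 14.7 (median 14.1). All 3 of these lower members changed sign with median centring.

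Among core members Syn1 ranked lower given corticosterone, from 67.9 to 72.4 against 78.6 to 90.6 (median 82.6), a difference of -13.9 points (SE 1.83) or -1.31 in quantile-normalized log2, with groups that did not overlap. Vamp2 fell by 1.11 points (SE 0.30) on its member probe set, with ranks of 92.2 to 93.2 against 92.9 to 95.2. Other Vamp2 probe sets of clear signal were called higher, by 2.86 points (SE 0.97) and 5.48 points (SE 1.56), so its probe sets disagreed. Cplx1 was higher by 0.53 points (SE 0.16) on its member probe set. That call was lost with a replicate block (limma adjusted p = 0.152) and with unpaired pups only (limma adjusted p = 0.158). It was also lost with saline replicates 1 and 2 only (limma adjusted p = 0.076). The other Cplx1 probe set was called lower (-4.63 points, SE 1.33). Snap25 (-0.232 points), Stx1a (0.175 points), Syp (-0.106 points) and Cplx2 (7.18 points, SE 3.80) were not called. Chosen after its values were seen, Syt3 ranked from 48.1 to 48.5 against 58.8 to 63.7 (median 60.2), a difference of -12.0 points (SE 0.69). Likewise chosen, Unc13a ranked from 28.1 to 29.2 against 39.0 to 51.5 (median 42.6), a difference of -14.6 points (SE 1.39), with groups that did not overlap. Probe set A of Vamp1, described above for its age difference, ranked from 70.5 to 79.1 given corticosterone and from 67.1 to 78.4 given saline. It was not called (0.81 points, SE 1.72). Probe set B was called higher, by 7.74 points (SE 2.075) or 1.00 in quantile-normalized log2.

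Markers of other cells differed with corticosterone as well. Of the 9 pan-neuronal markers 6 were called lower and 0 higher (median -0.79 percentile points), and of the 9 striatal markers 4 were called higher and 0 lower (median 7.06 points), against 27.8% higher and 34.2% lower of all probe sets. The mean percentile of the pan-neuronal list ranged from 94.9 to 95.9 given corticosterone and from 94.4 to 97.3 over all saline arrays, and that of the striatal list from 62.9 to 75.8 and from 58.2 to 77.5. Their part in the members' differences was not tested.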

How the data were processed

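The authors deposited log2 expression per probe set and array. RMA and GCRMA are named in the submitters' processing notes, with no version. Per the file headers, the authors' table of each condition holds a rank product score, a fold change (ratio), a pfp (a score that may pass 1) and a p-value. Which program, background model and annotation made the values is not given in the sources used here. These tables served for gene symbols (5981 of 15866 probe sets with a single symbol, updated through RefSeq) and for the pfp quoted as the authors'.

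Computed here were rank products over all paired-minus-unpaired array differences (100 shuffles within arrays, pfp under 0.05 in each direction), and limma 3.58.1 with trend in R 4.3.3 on within-array percentile ranks, with Benjamini-Hochberg adjustment at 0.05 over all 15866 probe sets and training as a covariate. The limma fit on deposited log2 values gave the SE and the interaction terms. Only rank products over all array differences and a limma fit on log2 values without covariate or block were run on simulated data. There the rank product pfp, which does not take account of unequal spread between probe sets, called more unchanged than changed probe sets in the saline design. The simulated arrays were independent, unlike same-numbered saline arrays, so the share of false calls in the real data is not known from this. The pfp is not read as an error rate for probe sets of large spread, and limma stands beside it. In saline pups 1 probe set, of no member, had a pfp of exactly 0.05 and was not counted as called, a choice made after the count was seen.

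Arrays were grouped by title. Same-numbered saline and 12-day arrays deviated together (correlations of 0.537 to 0.86 and 0.598 to 0.734), and corticosterone arrays did not (-0.283 to 0.0434). Alternatives were other scalings, filters, blocks, unpaired pups only and leaving out each array. Members, gene lists and markers were chosen with earlier results of these data known. Values of every array or ranges were given for members called with pairing, for up to 12 called on both array designs, for up to 6 called with corticosterone, and for the core release genes. A few genes are not reported here by name and are left out of the plots; they stay in the fits and counts.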

Additional observations from a re-analysis of the deposited data

Results flagged for a closer look

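Complexin 2 (Cplx2) on the paired saline array of replicate 2 measured 6.38, where the other 6 paired arrays lay between 8.49 and 9.58, a gap that passed Dixon's 95% criterion. The unpaired array of the same number was low as well, at 6.44. It was the single such array in 92 groups tested, and chance flags about 1 in 20 groups.

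The pairing difference of Vamp1 probe set B differed between conditions when same-numbered differences were permuted between them. It was larger by 1.42 in corticosterone than in saline pups (exact two-sided permutation p = 0.00833 over 120 relabellings), with every one of the 3 corticosterone differences above 0 and every one of the 7 saline differences below 0. It was larger by 0.87 in 12-day than in saline pups (exact two-sided permutation p = 0.00606 over 330 relabellings). The probe set was singled out by its call in saline pups, both comparisons use the same saline arrays, and the numbers do not pair the corticosterone arrays, so these p-values are not independent evidence. Limma called neither difference (adjusted p = 1.00).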

How the results depend on the processing

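For pairing, 27 probe sets were called in saline pups, with 106 under a replicate block (same-numbered arrays), 17 at a mean log2 of at least 5 and 12 to 33 with 1 array left out, the lowest without paired replicate 4. In corticosterone pups 4 became 0 at that level and 1 to 31 with 1 array left out, the extremes without unpaired replicate 3 and paired replicate 3. In 12-day pups 8 became 25 under the replicate block, 15 on percentile ranks, 5 at that level and 1 to 26 with 1 array left out, the highest without unpaired replicate 2. Limma called 0 in each condition under every setting run. Members called stayed at 0 except that 1 was called in saline pups when every probe set was counted. The difference of Vamp1 probe set B ran from -1.05 to -0.63 with 1 array left out. The count of differing pairing effects between corticosterone and saline ran from 0 to 2.

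For age on the smaller design, unpaired pups only, with fewer arrays, gave 4859 calls in place of 8383, with 14 and 6 members higher and lower in place of 22 and 11. Counting every probe set gave 34 higher there and 36 on the larger design. Centring on array medians put 19 and 24 members lower on the 2 designs and 18 lower on both, in place of 9. Unpaired pups only left 10 higher and 5 lower on both. Under the replicate block 18 were higher and 9 lower on both. For corticosterone, 9848 calls became 6490 at a mean percentile of at least 25, and the 9 higher members became 20 with median centring, 5 at that percentile, 14 under the replicate block and 15 with saline replicates 1 and 2 only, a setting added after the data were seen. With 1 array left out, members higher and lower on both designs ran from 16 to 18 and from 8 to 10. Median centring reversed, among others, Syt2 (-0.19 on each design) and Syt8 (-0.34 and -0.33) with age. With corticosterone it reversed, among others, Cplx1 (-0.0069), Stxbp2 (0.29), Sv2c (0.97) and Unc13d (1.11). Further reversals included Unc13d with age (-0.35 and -0.36), and Vamp5 (0.51), Syt2 (1.16) and Snap91 (1.09) with corticosterone. Such centring shifts the median of all probe sets, and other causes were not tested. Low signal limits the members with a mean log2 under 5.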
